A study of Sus scrofa with 4 samples.

Results

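The inducible heat shock genes described here are HSPH1, HSP70.2, DNAJB1, PTGES3, HSPA8, HSPB1 and HSP90AA1, 7 genes of the cytosolic chaperone system, in the liver of young pigs fed with or without added L-carnitine. They were chosen by their difference between the carnitine and control pools on these same arrays, with all probe sets annotated to them taken, whether or not these differed. The array's annotation gave 17 probe sets for the 7 genes, of 23999 probe sets and of 6765 genes with a symbol of their own. Since the signals that chose the genes are the signals shown, the values of the members are a description and carry no test. All pigs were male crosses of the type (German Landrace x Large White) x Pietrain, put on the diets at an age of 4 weeks and sampled at 7 weeks. The control group received the basal diet for 21 days, and the carnitine group received that diet with 500 mg of L-carnitine added per kg. Livers were taken 2.5 h after the last meal, and each pool mixed the RNA of 4 pigs, with 2 pools and hence 8 pigs per diet. Each pool was hybridized to an Affymetrix porcine GeneChip, so that differences between single pigs are averaged within a pool and 4 arrays carry the comparison.

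Heat shock proteins bind proteins that are unfolded or not yet folded, keep them from clumping and help them to fold. The inducible genes share heat shock factor 1 (HSF1) as an activator, which is held inactive by chaperones until unfolded proteins draw these away. The HSP70 proteins work in a cycle of ATP use that J-domain proteins such as DNAJB1 start and that exchange factors such as HSPH1 renew. Clients then pass to HSP90, whose late step is held by the co-chaperone p23, the product of PTGES3, while small heat shock proteins such as HSPB1 hold unfolded clients without using ATP. In liver these chaperones serve a cell with heavy protein synthesis, and HSP90 with p23 keeps nuclear receptors ready to bind their ligands.

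Signal is the deposited MAS5 intensity of a probe set in arbitrary units, and differences are given as the mean log2 signal of the carnitine pools minus that of the control pools, with the standard error (SE) from limma's fit. A probe set's signal depends on its probes, so signals are compared between pools and not between probe sets. The median signal of all probe sets lay between 109 and 114 on the 4 arrays. The 3' to 5' ratio of GAPDH, which rises as RNA is degraded or copied short, was 18.7 and 16.1 with carnitine and 12.5 and 11.6 in the controls, and that of actin was 157 and 136 against 91.2 and 86.7. For EF1A the groups overlapped (23.4 and 29.6 with carnitine, 57.9 and 18.2 in the controls), and the ratio of the dap spike-in lay the other way, at 11.0 and 7.83 against 19.7 and 17.9. Control pool 2 stood apart in some markers of other liver cells. The summed signal of 8 stellate cell and fibroblast markers was 12270 there against 3523 to 4756 in the other pools, with ACTA2 at 5533 against 542 to 1174, and that of 4 bile duct markers was 7348 against 1238 to 1741, with SPP1 at 6231 against 882 to 1382. Not all markers of these lists went with the sums: COL1A2 read 345 in control pool 2 against 362 to 541 in the other pools, and COL3A1 read 121 against 219 in carnitine pool 2. None of these 12 markers was at 0, but SOX9 was dim in all pools, at 3.46 to 6.84. KRT19, COL3A1 and LUM were dim in some pools, down to 25.4, 21.4 and 31.2. The summed signal of 6 endothelial markers was 4804 in control pool 2 against 2223 to 3427 in the other pools. Among them VWF read 495 there against 43.5 to 203, while CDH5, at 868, lay within the range of the other pools, 520 to 942. The summed signal of 9 macrophage and leukocyte markers, 2693 in control pool 2, lay within the range of the other pools, 2552 to 3380. The 11 hepatocyte markers summed to 380875 and 349774 with carnitine and to 418103 and 378937 in the controls, with 10 of the 11 lower by their mean in the carnitine group, and the albumin gene ALB was bright on all arrays. The 3' signals of 3 spike-ins were higher in both carnitine pools. For dap they were 8792 and 10830 with carnitine and 8060 and 7013 in the controls. For lys they were 837 and 1199 against 792 and 708, and for thr 3448 and 4938 against 2986 and 2842. For phe the groups overlapped, at 1140 and 1954 against 1216 and 1182. The part of the 3' to 5' ratios, of the spike-in signals and of these markers in the heat shock signals was not tested. The difference of each member probe set without control pool 2 is given after the member values. In whole liver a change in the number of cells of a type cannot be told apart from a change in RNA per cell.

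Of the 17 probe sets, 8 were at least 2-fold higher in the carnitine group and 0 were 2-fold lower, beside 8.03% of all probe sets that were at least 2-fold higher. Among probe sets above the median signal, where 16 of the 17 lay, the share at least 2-fold higher was 2.13%. The 8 belonged to 6 of the 7 genes, all but HSPB1. By their brightest probe sets, PTGES3 had 0.031 and HSP90AA1 0.50 on the log2 scale, short of 2-fold. In 11 probe sets both carnitine pools lay above both control pools, a pattern held by 19.2% of all probe sets and by 21.9% of those above the median signal. In 1 both lay below, a pattern held by 20.4% of all probe sets, and in 5 the groups overlapped. All 7 genes had a probe set in which the groups did not overlap with carnitine higher, but 4 of them have more than 1 probe set. The shares are per probe set, so they do not apply to these counts of genes. The median difference of the 17 was 0.63 on the log2 scale, beside -0.018 over all probe sets. Because the genes were chosen on this contrast, nothing is read from these shares. Of the 23999 probe sets, 1 passed an adjusted p under 0.05 in limma's fit (0.00417%), and it belonged to no member.

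**Figure D1:**
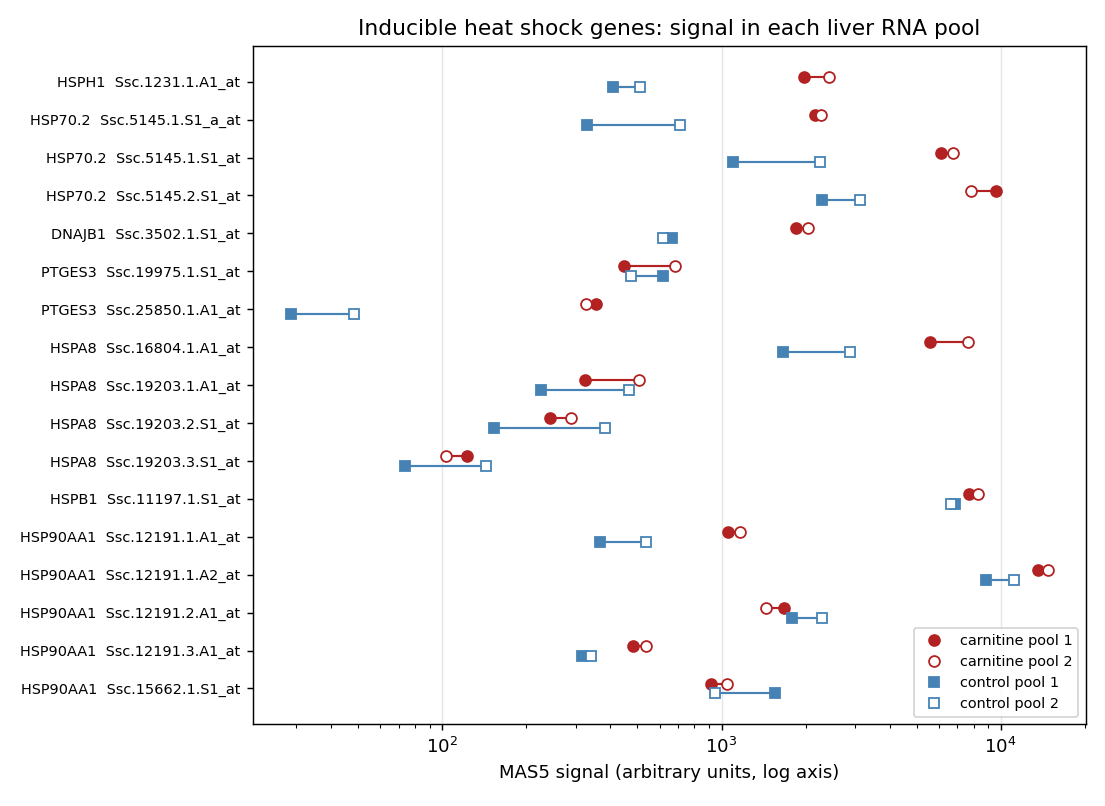
MAS5 signal of the 17 probe sets of the 7 genes in each of the 4 pools, on a log axis, with a point for each pool and the carnitine and control groups marked apart. The groups are separate in 12 probe sets, with carnitine higher in 11 of them, and overlap in 5.

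HSP70.2 encodes the stress-inducible cytosolic HSP70, the chaperone that takes up unfolded clients. It had 3 probe sets, and both carnitine pools were above both control pools in each of them. Probe set Ssc.5145.1.S1_a_at had signals of 2166 and 2266 with carnitine and of 331 and 713 in the controls, a difference of 2.19 (SE 0.35) on the log2 scale or 4.56-fold. For Ssc.5145.1.S1_at the signals were 6111 and 6760 against 1096 and 2246, a difference of 2.03 (SE 0.33) or 4.10-fold. For Ssc.5145.2.S1_at they were 9626 and 7861 against 2297 and 3138, a difference of 1.70 (SE 0.22) or 3.24-fold. The pools of the carnitine group lay close together and those of the control group did not. Control pool 2 was 2.16 times, 2.05 times and 1.37 times control pool 1 in the 3 probe sets, so that the difference of the first probe set ran from 1.60 to 2.78 over the 4 pairs of pools. In the RefSeq gene table of assembly Sscrofa11.1, HSP70.2 carries the synonyms HSPA1A and HSPA1B and lies within the span of its relative HSPA1L, for which no probe set was annotated. Near-identical HSP70 copies may share probes, so these signals are uncertain as to the copy they come from.

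HSPA8 encodes HSC70, the HSP70 that cells make without stress and that also folds new proteins and uncoats vesicles. Its 4 probe sets did not behave alike. Ssc.16804.1.A1_at had signals of 5573 and 7652 with carnitine and of 1656 and 2885 in the controls, a difference of 1.58 (SE 0.30) or 2.99-fold, with no overlap. In the other 3 probe sets the groups overlapped. Ssc.19203.1.A1_at read 323 and 505 against 225 and 466, a log2 difference of 0.32 (SE 0.40). Ssc.19203.2.S1_at read 242 and 289 against 153 and 382, with 0.13 (SE 0.44), and Ssc.19203.3.S1_at read 123 and 103 against 73.5 and 144, with 0.13 (SE 0.45). In all 4 probe sets control pool 2 was above control pool 1, at 1.74 times its signal in the first and 1.96 to 2.50 times in the others. The differences of the last 3 turned with the control pool used: without control pool 2 they were 0.85, 0.79 and 0.61, and without control pool 1 they were -0.21, -0.53 and -0.36. By the mean log2 signal over the 4 pools, Ssc.19203.3.S1_at was the only one of the 17 below the median of all probe sets.

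HSPH1 encodes HSP110, which exchanges the nucleotide on HSP70 and helps it to take clumped proteins apart. Its single probe set, Ssc.1231.1.A1_at, had signals of 1979 and 2429 with carnitine and of 408 and 512 in the controls, or 2204 ± 319 against 460 ± 73.9 (mean ± SD, n = 2). The difference was 2.26 (SE 0.22) on the log2 scale or 4.80-fold, and every carnitine pool was 3.86 to 5.96 times every control pool. DNAJB1 encodes the HSP40 whose J-domain stimulates ATP use by HSP70. Its probe set Ssc.3502.1.S1_at had signals of 1855 and 2046 against 666 and 617, a difference of 1.60 (SE 0.19) or 3.04-fold. These were the narrowest pairwise values among the probe sets at 2-fold, from 1.48 to 1.73, and DNAJB1 was the only gene of this group of HSP70 genes and partners in which control pool 1 lay above control pool 2.

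HSP90AA1 encodes the inducible form of cytosolic HSP90, which holds kinases and nuclear receptors in a form ready for activation. Its 5 probe sets pointed both ways. Ssc.12191.1.A1_at had signals of 1056 and 1162 with carnitine and of 367 and 535 in the controls, a difference of 1.32 (SE 0.25) or 2.50-fold. Ssc.12191.1.A2_at had 13573 and 14734 against 8894 and 11201, a log2 difference of 0.50 (SE 0.20), and Ssc.12191.3.A1_at had 481 and 535 against 317 and 341, with 0.63 (SE 0.23). In these 3 both carnitine pools were above both control pools. Ssc.12191.2.A1_at lay the other way, with signals of 1678 and 1438 against 1796 and 2296 and a difference of -0.39 (SE 0.21). Ssc.15662.1.S1_at had 918 and 1044 against 1553 and 949.5, a difference of -0.31 (SE 0.27) with overlapping groups. The lowest and highest differences of HSP90AA1 were thus 1.71 apart on the log2 scale.

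PTGES3 encodes p23, the co-chaperone that stabilises the closed state of HSP90 and was also named as a prostaglandin E synthase. Of its 2 probe sets, one had the highest difference of the 17 on the signals as deposited and the other was close to 0. Ssc.25850.1.A1_at had signals of 355 and 328 with carnitine and of 28.6 and 48.4 in the controls, a difference of 3.20 (SE 0.41) or 9.18-fold. The control signals were below the array medians of 114, where MAS5 signals vary most, and with an offset of 64 added to all signals the difference was 1.99, below those of HSPH1 (2.11) and of HSP70.2 by Ssc.5145.1.S1_a_at (2.04) with that offset. The other probe set, Ssc.19975.1.S1_at, had signals of 449 and 680 against 617 and 473, a difference of 0.031 (SE 0.28) with overlapping groups. The probe sets of PTGES3 were 3.17 apart on the log2 scale, a wider range than in 98.0% of the 2261 genes with more than 1 probe set. For HSP90AA1 that share was 85.9%, for HSPA8 with a range of 1.45 it was 81.4%, and for HSP70.2 with a range of 0.49 it was 41.0%. A range tends to widen with the number of probe sets, which was 5 for HSP90AA1 and 4 for HSPA8. The 2261 genes were not matched for that number or for signal. The sources used here do not say which transcripts the separate probe sets bind.

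HSPB1 encodes HSP27, a small heat shock protein that holds clients and protects actin filaments. Its probe set Ssc.11197.1.S1_at was bright in all pools, at 7703 and 8289 with carnitine and at 6844 and 6662 in the controls. The difference of 0.24 (SE 0.18) on the log2 scale or 1.18-fold was the lowest among the genes by their highest probe set, although both carnitine pools lay above both control pools.

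**Figure D2:**
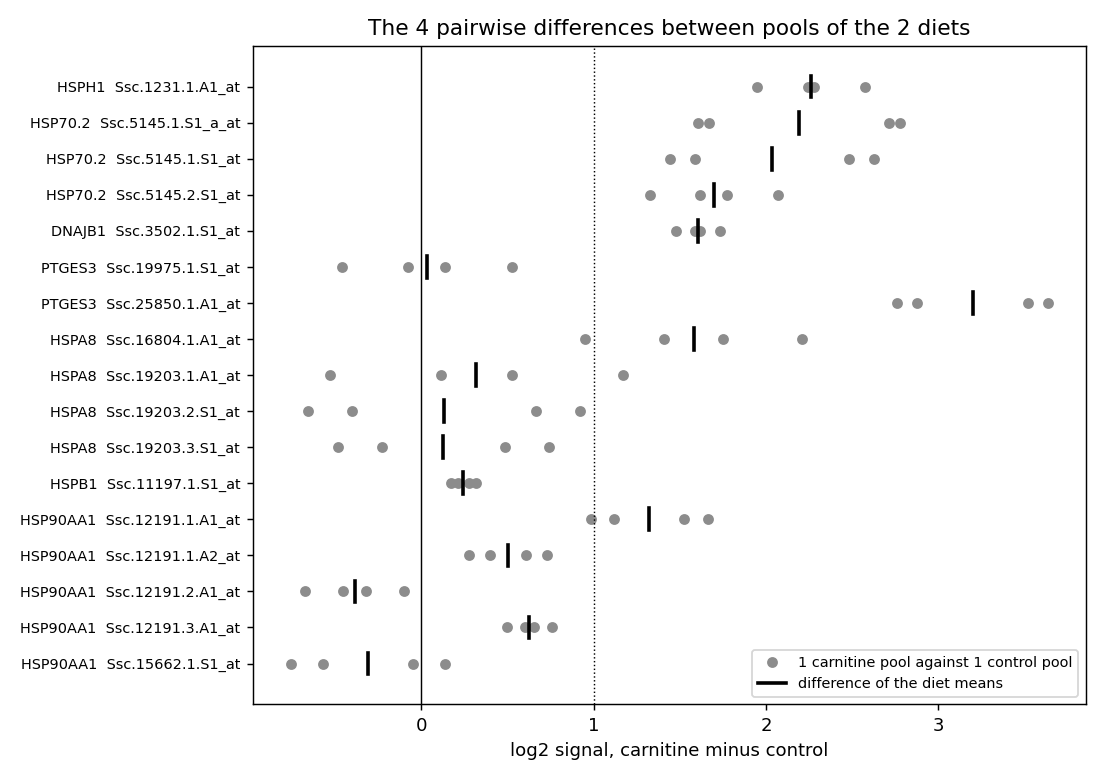
Log2 difference in signal, carnitine minus control, for each of the 17 probe sets, with a point for each of the 4 pairs of pools, a bar at the difference of the diet means and a dotted line at a 2-fold higher signal. The probe sets of HSP70.2 lie together, between 1.70 and 2.19, while those of PTGES3, HSPA8 and HSP90AA1 lie far apart.

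For most of the member probe sets the control pools lay farther apart than the carnitine pools. This held for 13 of the 17, and for 60.4% of all probe sets above the median signal. The median gap over the 17 was 0.54 on the log2 scale between the control pools and 0.19 between the carnitine pools, and 0.32 and 0.23 over all probe sets above the median signal. Control pool 2, the pool with high sums of stromal, endothelial and bile duct markers, was above control pool 1 in 13 of the 17, beside 48.1% of all probe sets. The 13 included all probe sets of HSP70.2 and HSPA8. Carnitine pool 2 was above carnitine pool 1 in 13 of the 17 as well, beside 52.5% of all probe sets. Without control pool 2 the differences of HSP70.2 were 2.74, 2.55 and 1.92 in the order given above, and that of HSPA8 by Ssc.16804.1.A1_at was 1.98. HSPH1 then had 2.43, DNAJB1 had 1.55 and HSPB1 had 0.22. PTGES3 had 3.58 by Ssc.25850.1.A1_at and -0.16 by Ssc.19975.1.S1_at, which was 0.22 without control pool 1. HSP90AA1 had 1.60, 0.67, 0.68, -0.21 and -0.67 in the order given above, and the last of these was 0.044 without control pool 1. Without control pool 1 the difference of HSPA8 by Ssc.16804.1.A1_at was 1.18, and the lowest difference of HSP70.2 was 1.47. With each pool left out in turn, the difference of HSPH1 ran from 2.10 to 2.43, that of DNAJB1 from 1.53 to 1.68, that of PTGES3 by Ssc.25850.1.A1_at from 2.82 to 3.58 and that of HSP90AA1 by Ssc.12191.1.A1_at from 1.05 to 1.60. Each time 8 of the 17 reached 2-fold, beside 8.75% to 10.8% of all probe sets in these fits.

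The genes that work with the members, or that heat shock factors are known to drive, were taken from 8 lists of 98 genes, of which 71 were measured, each by its brightest probe set. These lists were written with results of these data known. Of the 71 genes, 47 differed upwards and 24 downwards, and their median difference was 0.14 on the log2 scale beside -0.0089 over all 6765 genes. In limma's fit 14 were higher and 2 lower in the carnitine group at an unadjusted p under 0.05, or 19.7% and 2.82%, beside 6.56% higher and 3.99% lower of all genes. None of the 71 passed the adjusted p, of which the lowest was 0.174, and the one-factor analysis of variance gave 7 higher and 1 lower at its unadjusted p. The shares over all genes are given for the reported fit only. Counts from other fits thus have no share beside them, and a change in them is not read as particular to these genes. The 14 were 9 without carnitine pool 1 and 6 without carnitine pool 2, against 13 and 16 without control pools 1 and 2. The 2 lower genes were 1 without either carnitine pool, 4 without control pool 1 and 3 without control pool 2.

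ZFAND2A, an arsenite and heat inducible regulator of protein breakdown, stood highest of the 71, with signals of 1409 and 1423 against 310 and 429. Its log2 difference was 1.96 (SE 0.24, adjusted p = 0.174 by limma). Among the 15 other HSP40 proteins, DNAJA1, a J-domain partner of HSP70, read 1258 and 1980 against 575 and 708, with 1.31 (SE 0.27, adjusted p = 0.333) and 1.18 in its other probe set. DNAJB2 had 0.79 on the same scale, and the other 13 did not pass the unadjusted p. Thus 2 of the 15 (13.3%) were higher at that p, beside 6.56% of all genes. Of the 9 other HSP70 and HSP110 genes, 3 (33.3%) were higher at an unadjusted p under 0.05, beside the same 6.56%. They were HSPA13 with 1.13, HSPA14, a ribosome-bound HSP70, with 1.21, and HYOU1, the HSP110 relative of the endoplasmic reticulum, with 0.93. HSPA5 (BiP), the HSP70 of the endoplasmic reticulum, had 0.57, HSPA4 had 0.20, HSPA2 had 0.00050 at dim signals between 30.5 and 123, HSPA6 0.19 at dim signals between 44.3 and 100.2, and the mitochondrial HSPA9 had -0.0026, none of them past the unadjusted p. The other probe sets of HSPA4 had 0.78, at dim signals between 4.11 and 14.8, and 0.54. Those of HSPA9 had 0.44 and -1.75, the latter at dim signals between 2.59 and 15.2. None of these probe sets was past that p. By the brightest probe sets, STIP1, which links HSP70 to HSP90, was the only one (12.5%) of the 8 exchange and linker factors at that p, with 0.85. BAG3, an exchange factor that heat shock induces, had 0.26. BAG6 had -0.165, and its other probe sets had 1.53 and 0.83 at dim signals, the 1.53 with an unadjusted p under 0.05.

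Of the 12 other genes of HSP90 and its co-chaperones, 10 were above 0, with a list median of 0.46. CDC37L1 (0.97), PPID (0.86), CACYBP (0.66) and FKBP5 (0.62) were higher at the unadjusted p, or 33.3% beside 6.56% of all genes. Their other probe sets had 1.33, -0.19, 0.75 and 0.10 in that order, those of CDC37L1, PPID and CACYBP at dim signals. PPID and FKBP5 are immunophilins of HSP90 complexes. The constitutive HSP90AB1 had signals of 6702 and 7762 against 7631 and 9844, a log2 difference of -0.27 (SE 0.21) and overlapping groups. The probe sets of HSP90AA1 lay on both sides of that value, from -0.39 to 1.32. HSP90B1, the HSP90 of the endoplasmic reticulum, had 0.41 and FKBP4 had 0.45, neither past the unadjusted p, while the other probe set of HSP90B1 had 0.53 with an unadjusted p under 0.05. TRAP1, the mitochondrial HSP90, was lower with -0.59, but its other probe sets had 1.45 and -0.43 at dim signals. The 7 other small heat shock proteins had a median of -0.26, with HSPB2 lower at -0.55, HSPB8 at -0.26 and CRYAB at 0.054.

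Of 13 chaperonins and mitochondrial chaperones, CCT6A (0.92), TCP1 (0.58) and GRPEL1 (0.50) were higher at the unadjusted p, or 23.1% beside 6.56% of all genes. HSPD1 (HSP60) had 0.14 and its partner HSPE1 -0.13. Among the 4 measured heat shock factors and their binding protein, 1 was above 0 and 3 were below, and none had an unadjusted p under 0.05. HSF1 read 736 and 742 against 966 and 611, a log2 difference of -0.055 (SE 0.27), HSF2 had -0.23 and HSBP1 had -0.15. Of the 13 other known targets of heat shock factors, 2 (15.4%) were higher at the unadjusted p, ZFAND2A and CACYBP, beside the same 6.56%. The ubiquitin gene UBB had 0.026, SERPINH1, the collagen chaperone HSP47, had -0.10 and HMOX1 had -0.31.

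**Figure D3:**
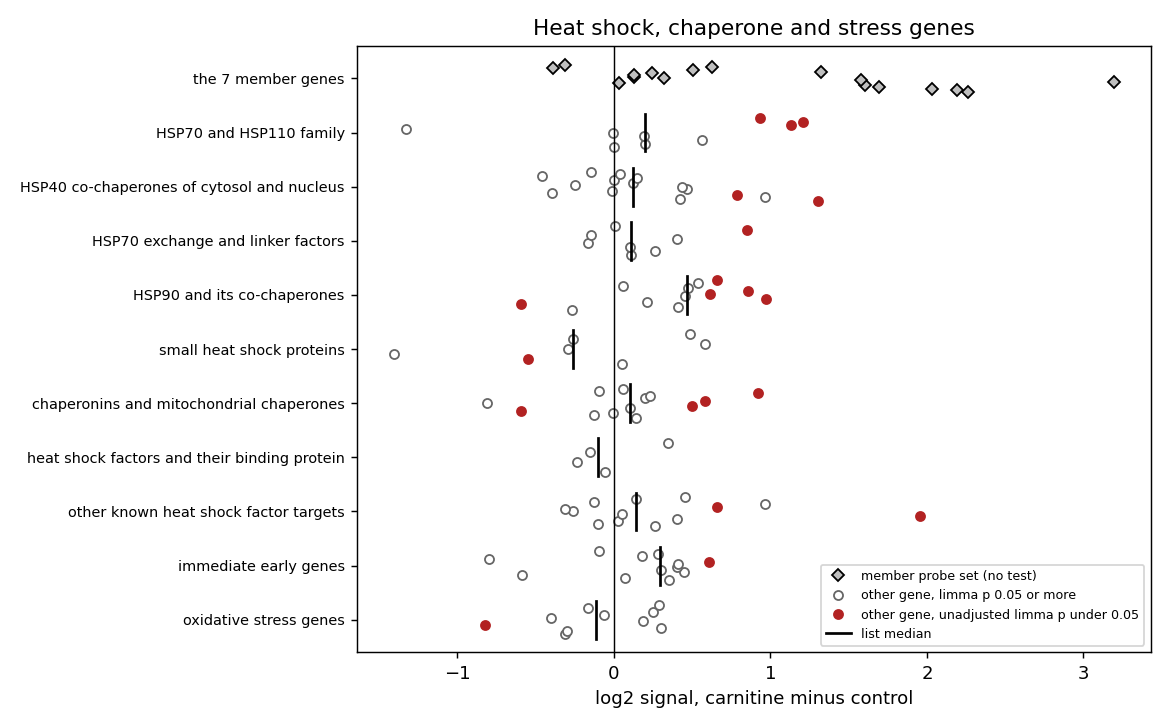
Log2 difference, carnitine minus control, for the member probe sets and for the genes of 8 heat shock and chaperone lists and 2 stress lists, with a point for each gene, a bar at the list median and filled points for an unadjusted limma p under 0.05. The HSP90 list has the highest median of the 8, at 0.46, and ZFAND2A lies farthest to the right among the genes that are no member.

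Beside the heat shock genes, 2 lists of other stress genes were described. Of 12 immediate early genes, which switch on within minutes of many stimuli, 9 were above 0, with a median of 0.29 beside -0.0089 over all genes. At an unadjusted p under 0.05, 1 (8.33%) was higher, near the 6.56% of all genes that were higher. This was DUSP1, with signals of 2077 and 2157 against 1438 and 1343 and a log2 difference of 0.61 (SE 0.18, adjusted p = 0.446 by limma). FOS had 0.35, JUN 0.069, ATF3 0.41 and EGR1 -0.58, and the list summed to 7744 and 9994 with carnitine and to 8847 and 7766 in the controls, so that these sums overlapped. Of 10 oxidative stress genes, 4 lay above 0 and 6 lay below it, the median was -0.11, and GCLC, which makes the rate-limiting enzyme of glutathione synthesis, was lower at the unadjusted p with -0.82. GCLC alone made up 10.0% of this list, beside 3.99% of all genes that were lower.

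The genes most like HSPH1 over the 4 pools were sought among 6035 probe sets with a symbol and a signal above the median, by the root mean square distance between log2 signals that were each centred on their mean. ZFAND2A was nearest, at 0.19, followed by CA3 (0.22), PPRC1 (0.22), PPP1R3B (0.23) and SLC2A8 (0.27). CA3, a carbonic anhydrase, had signals of 526 and 568 with carnitine and of 143 and 131 in the controls. PPRC1, a coactivator of mitochondrial gene expression, had 990 and 879 against 184 and 175, and PPP1R3B, a glycogen-targeting subunit of protein phosphatase, had 1626 and 2673 against 467 and 648. SLC2A8, a sugar transporter, had 800 and 1280 against 280 and 289. Among the members the nearest were the probe sets of HSP70.2, at 0.28 to 0.35, followed by DNAJB1 at 0.37 and HSPA8 by Ssc.16804.1.A1_at at 0.38. HSP90AA1 by Ssc.12191.1.A1_at was at 0.48 and PTGES3 by Ssc.25850.1.A1_at at 0.51. HSPH1 was chosen for its difference between the diets, so a gene near it must differ in a like way. The other members were chosen on that difference too. Over only 4 pools this likeness is a description, and no shared regulation is read from it.

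**Figure D4:**
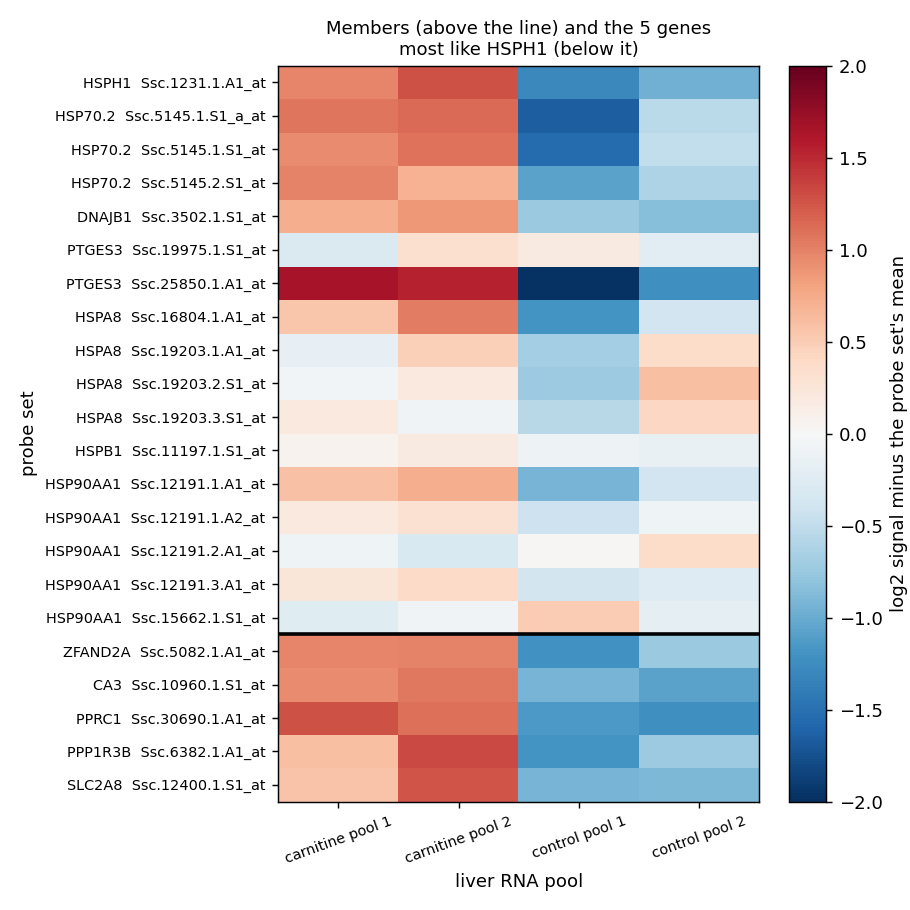
Log2 signal in the 4 pools, each probe set centred on its own mean over the pools and drawn as a colour, for the 17 member probe sets (above the line) and the 5 genes most like HSPH1 (below it). The 8 member probe sets that reached 2-fold lie above their mean in both carnitine pools and below it in both control pools, and control pool 1 is the lowest pool for all of these but DNAJB1.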

How the data were processed

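Liver RNA of 2 pools per diet was measured on 4 single-colour arrays. The authors deposited MAS5 signal intensity values on a linear scale, made by subtracting background, summarising probe pairs and bringing the arrays to one trimmed mean. Tools in the submitters' processing notes are MAS5 5.0, Affymetrix Expression Console 1.1 and GCOS 1.1.2. Detection calls and probe sequences were not used here.

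Groups and pool numbers came from the labels. The 124 Affymetrix control probe sets were dropped from the 24123 on the array. Intensities were log2-transformed without a pseudocount or filter, and lmFit and eBayes (with trend) of limma 3.58.1, run under R 4.3.3, were used for standard errors and p-values, with Benjamini-Hochberg adjustment over 23999 probe sets. The fit was tested on simulated data. It has 2 residual degrees of freedom, and the number of arrays limits the precision: a two-sided exact permutation test of 2 against 2 pools cannot go below p = 0.333. The standard errors and p-values rest on the spread between pools, which the fit draws toward that of other probe sets of like signal. They are thus not the spread of a probe set alone. Symbols came from the array's annotation (1 symbol for 10069 probe sets, several for 198, none for 13732), which can be old, and the gene table changed 0 of them. The annotation states no genome build, so coordinates are not printed.

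The members and lists were chosen with earlier results of these data known. The text names all member probe sets, a set of well-known heat shock genes and up to 4 further genes per list by smallest p, and the 5 genes most like HSPH1. Alternatives were quantile normalization, centring, a floor at the 25th percentile, an offset of 64, arithmetic means, a filter at the median, no variance trend, the methods' one-factor analysis of variance, the mean over a gene's probe sets, the replicate number as a block and each pool left out. Real-time PCR was not analysed here.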

Additional observations from a re-analysis of the deposited data

How the results depend on the processing

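The count of 8 member probe sets at 2-fold or more was the same under all alternatives run, while the share of all probe sets at 2-fold higher, 8.03% as reported, was 0.708% with the offset of 64, 2.02% with the floor and up to 10.8% with a pool left out. Of the 17, 13 to 15 lay above 0. With the offset, PTGES3 by Ssc.25850.1.A1_at was 1.99 on the log2 scale in place of 3.20. The count of all probe sets past the adjusted p, 1 in the reported fit, was 2 with the floor, 3 with the filter at the median, 0 without the variance trend, 0 by the analysis of variance and 0 to 8 with a pool left out. The 14 other heat shock and chaperone genes higher at the unadjusted p became 9 without the trend, 7 by the analysis of variance and 6 to 16 with a pool left out. The 2 lower became 1 with centring, 0 without the trend, 1 by the analysis of variance, 1 with the mean over probe sets and 1 to 4 with a pool left out. Where a pool was left out, the lone pool of that diet was assumed to vary like the others. For these alternatives the share of all genes at the unadjusted p is not given, so the changed counts cannot be set beside the whole array. The cause of these changes was not tested. Dim signals, such as those of PTGES3 in the control pools, set the limit of what MAS5 values without detection calls can show.

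With the replicate number as a replicate block, 106 probe sets passed the adjusted p, 2 of the 71 list genes among them (DNAJA1 and ZFAND2A). The numbers were not shown to pair the pools: the deviations of the pools numbered 1 correlated across probe sets at 0.0032 between the diets.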

Other observations

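Of the 28 other heat shock and chaperone genes with more than 1 probe set, 11 (39.3%) had probe sets on both sides of 0, beside 50.6% of the 2261 genes with more than 1 probe set on the array, and the median range of a gene was 0.52 on the log2 scale beside 0.64. PPID had 0.86 in one probe set and -0.19 in the other, the latter at dim signals between 15.5 and 45.3. CCT6A had 0.92, 1.15 and -0.64, the last at signals under 3. Of 3 erythroid markers, ALAS2, the first enzyme of haem synthesis in red cell precursors, had signals of 358 and 240 with carnitine and of 644 and 917 in the controls, a log2 difference of -1.39 (SE 0.30, adjusted p = 0.342 by limma), and AHSP, a haemoglobin chaperone, had 104 and 34.8 against 105 and 144, a log2 difference of -1.03 (SE 0.59), while HBB, a haemoglobin chain, had 310 and 299 against 278 and 301.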
